A study of Mus musculus with 4 samples.

Results

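The transcriptome of mouse ES cells of the line E14tg2a 72 h after transfection of a control siRNA was compared with that of untreated cells (0 h), using 2 of the 4 arrays of the series. The untreated array held cells that received no siRNA and the control siRNA array held cells transfected with a control siRNA, whose sequence the labels do not give. The remaining arrays held cells transfected with siRNA against Rif1 (a mix of the duplexes NC#1 and mRif1#2) and collected after 48 h or 72 h. Their levels are given beside those of the compared pair. The labels name no transgene or mutation, and the cells grew without feeder cells on gelatin in a medium with serum and leukemia inhibitory factor (LIF). Cells for knockdown were dispersed and transfected in suspension with a cationic reagent, Lipofectamine2000 or FuGENE HD, and in some experiments a second time after 24 h. The sources used here do not say which of these applied to the arrays. Each condition had 1 array, so the effects of the duplex, of the reagent and of 72 h of further culture, and the chance difference between a pair of cultures, cannot be told apart, and no difference below has a test or a p-value. Called measured are the 22548 of 39429 probes (57.2%) whose spots stood well above background on each array of the pair.

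An siRNA duplex is taken up with its lipid carrier, loaded onto an Argonaute protein and guided to transcripts, where bases 2 to 8 of the guide strand, the seed, can pair with transcripts that are not intended targets. The RNA can also reach cytoplasmic sensors such as RIG-I (Ddx58), MDA5 and PKR, which in most somatic cells start an interferon response. Mouse ES cells are known for a weak one. Cultures in serum and LIF are mixed: a small fraction of cells transiently expresses the 2C genes, which are otherwise active in the embryo after the first cleavage, and other cells drift towards primitive endoderm. Dense or aging cultures draw on amino acids, sterols and oxygen, which are sensed through ATF4, SREBP and HIF.

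The table of oligonucleotides of the study holds 1 duplex that carries no gene's name and is called universal. The sources used here do not say that it was the control siRNA on the arrays. Its strands are shown for that reason, without the dTdT ends and with the seed in capitals.
universal_s: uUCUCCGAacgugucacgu
universal_as: aCGUGACAcguucggagaa
The complement of the first seed occurred in the 60-base target sequence of 27 of the 22548 measured probes, with a median log2 difference of 0.04, and that of the second in 19, with a median of 0.03. Over all measured probes the median was -0.01. Of the 27, 1 was over 1.5-fold lower and 1 over 1.5-fold higher, and of the 19, 0 were past 1.5-fold in either direction. Over all measured probes, 1.92% were lower and 1.34% higher by this measure, so both counts are near the background. A probe covers only a short stretch of its transcript, so these counts do not describe whole transcripts.

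The level of a probe is its processed signal divided by the 75th percentile signal of its array, which was 1487 to 1610 units on the 4 arrays. Differences are log2 ratios of the control siRNA level to the untreated level. Levels are compared between arrays within a probe. A probe is called brighter or dimmer by its signal alone, which does not rank the transcripts of different probes, and a summed level adds the probes of a marker list on each array. The share of spots well above background was 58.8% without siRNA, 62.8% with control siRNA, and 71.5% and 74.1% with Rif1 siRNA. The targeted gene of the series, Rif1, stood at 5.55 in untreated cells and 5.42 with control siRNA, against 2.15 and 4.15 at 48 h and 72 h of Rif1 siRNA. All 8 genes that mark ES cells were measured, and their summed level was 378 untreated and 374 with control siRNA.

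Most transcripts stood at nearly the same level on both arrays. The median difference was -0.01, the SD over probes 0.26, and 96.7% of measured probes lay within 1.5-fold. Over 2-fold higher with control siRNA were 85 probes (0.377% of those measured), and 139 (0.616%) were over 2-fold lower. At 1.5-fold, 302 (1.34%) were higher and 433 (1.92%) lower. The differences shrank with signal, from an SD of 0.44 in the second lowest of 10 equal groups of probes by mean level to 0.08 in the highest group. Of the probes over 2-fold, 72 of the 85 higher and 133 of the 139 lower lay in the lowest 3 of these groups.

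**Figure D1:**
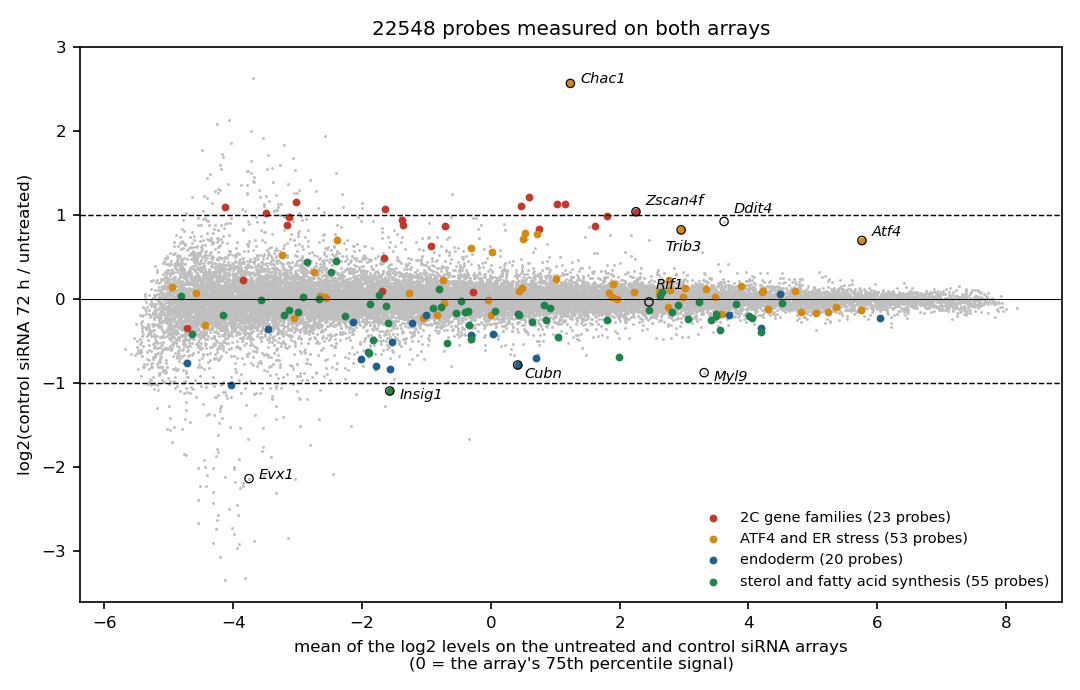
Log2 difference between control siRNA at 72 h and untreated cells (vertical) against the mean of the log2 levels on both arrays (horizontal) for the 22548 measured probes. Dashed lines mark 2-fold, colored points are 4 gene lists, and circles are named genes. The spread narrows to the right, and most probes of the 2C gene families lie near the upper dashed line, with Usp17la and AA684185 among those that lie far from it.

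The place of a spot on the array moved with the calls at low signal. The array has 532 rows, and rows 181 to 420 were the longest run of strips of 20 rows with at least 2 probes over 2-fold lower in each strip. These rows, chosen from the calls themselves, held 46.4% of the measured probes but 134 of the 139 probes over 2-fold lower and 63 of the 85 over 2-fold higher. For 116 of those 134, the untreated array was over 1.5 times every other array of the series, and for 48 of those 63 the control siRNA array was. Outside these rows, 2 of 22 higher and 3 of 5 lower probes stood apart on a single array in this way. Most of the 22, such as those of Zscan4a and Tcstv3, stood far higher still on both Rif1 siRNA arrays. For them the control siRNA array could not be the highest, so the counts of higher probes inside and outside these rows cannot be compared. The median pixel variation within a spot on the untreated array, as SD over mean, was 0.28 for the probes over 2-fold lower, against 0.18 for probes of the lowest 3 level groups that lay within 2-fold. The part of place and spot quality in these calls was not tested, so the text below turns on probes with a high signal, on genes with several probes and on groups of genes, and says for the leading dim probes whether a spot lay in these rows.

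**Figure D2:**
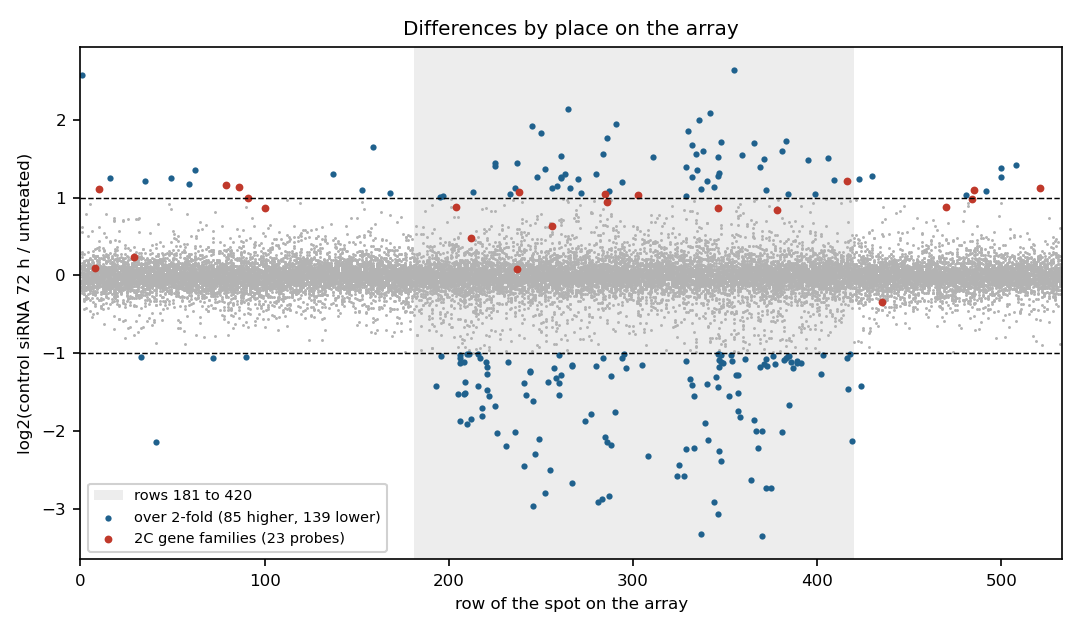
Log2 difference of each measured probe (vertical) against the array row of its spot (horizontal), with rows 181 to 420 shaded. Blue points are the 85 and 139 probes over 2-fold, most of them in the shaded rows, and red points are the 23 probes of the 2C gene families, of which 11 lie in those rows.

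Among the 9531 probes at or above the 75th percentile on both arrays, where the SD of the differences was 0.12, few genes moved. Over 1.5-fold higher were 22 (0.231%) and over 1.5-fold lower were 8 (0.0839%). Only 3 of them were over 2-fold, all higher, and they were probes of Zscan4c, Zscan4a and Zscan4f. The other higher probes with a gene symbol read 2C genes (Zscan4e, Gm4340, Gm2016, Gm2022 and BB287469), stress genes (Ddit4, Trib3, Nupr1, Herpud1 and both probes of Atf4), the germ cell gene Stra8, the ribosomal RNA probe Rs5-8s1, and Gm20767 and AF067061, which stood at 71.4 and 88.2 at 48 h of Rif1 siRNA. Among the 8 lower probes were those of Myl9, Cubn, Amn, Ddx58, Foxd3, Cited1 and Slc30a1. Cited1 (-0.65) and Rs5-8s1 (0.66) are not taken up again. The groups of genes are described in turn.

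Some genes of the ATF4 pathway were over 1.5-fold higher with control siRNA, led by Chac1, which degrades glutathione and is induced through ATF4. Chac1 stood at 0.967 untreated, 5.73 with control siRNA, and 0.736 and 2.84 at 48 h and 72 h of Rif1 siRNA. Its log2 difference of 2.57 was the highest outside rows 181 to 420, and it rests on 1 spot in the first row of the array. Atf4 itself, the transcription factor whose translation rises when the initiation factor eIF2alpha is phosphorylated, was higher on both of its probes. The brighter probe read 42.6, 69.2, 35.2 and 45.6 in the same order of arrays, a difference of 0.70, and the dimmer read 1.26, 2.15, 0.960 and 1.45, a difference of 0.77. Trib3, a pseudokinase that holds back ATF4, stood at 5.83, 10.3, 4.09 and 6.12, a difference of 0.82. For all 3 genes the control siRNA array was the highest of the 4 and the Rif1 siRNA array at 48 h the lowest.

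Further members with the same order of the compared pair were Nupr1, a stress-induced chromatin protein, with 1.10 untreated and 1.89 with control siRNA (0.79). Herpud1, which serves the degradation of proteins from the endoplasmic reticulum, stood at 1.10 and 1.80 (0.71). Ddit3, the transcription factor CHOP, stood at 0.150 and 0.244 (0.70, 1 spot in rows 181 to 420). The glycine transporter Slc6a9 had differences of 0.60, with its spot in those rows, and 0.56 on its probes. Outside the list, Adm2, a peptide hormone, stood at 0.0429, 0.134, 0.0463 and 0.0675 on the 4 arrays (1.65, 1 probe outside rows 181 to 420). In the whole list of 42 measured genes, 8 of 53 probes lay over 1.5-fold up and 0 over 1.5-fold down, against 1.34% and 1.92% of all measured probes, and the median was 0.08 against -0.01.

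Other members of the list lay within 1.5-fold, and those given here were chosen after their values were seen. Enzymes that make serine, glycine and one-carbon units had small differences above 0, with 0.23 and 0.24 for the probes of Psph, 0.18 for Mthfd2, 0.10 and 0.13 for Psat1, and 0.10 to 0.14 for Phgdh. Asparagine synthetase, Asns, had a difference of -0.10. Chaperones and folding enzymes of the endoplasmic reticulum had small differences below 0, with -0.16 for Hspa5 (BiP), -0.16 for Hsp90b1, -0.17 for Calr, -0.23 for Pdia4 and -0.22 for Hyou1.

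Because several of these genes are known to bind ATF4 near their start sites, their promoters were searched. The sequences run from 250 bases before to 50 bases after the annotated start, on the strand of the gene, and come from RefSeq on GRCm38.p6. Capitals mark TGATGNAA or its reverse complement, the core of the site bound by ATF4 with C/EBP factors.
Chac1, chr2:119350992-119351291, plus strand: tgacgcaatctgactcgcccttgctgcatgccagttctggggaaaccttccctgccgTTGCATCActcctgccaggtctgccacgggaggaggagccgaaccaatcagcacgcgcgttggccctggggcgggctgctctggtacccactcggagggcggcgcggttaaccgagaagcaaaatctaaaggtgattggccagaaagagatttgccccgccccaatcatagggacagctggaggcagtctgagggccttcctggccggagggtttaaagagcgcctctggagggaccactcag
Trib3, chr2:152344011-152344310, minus strand: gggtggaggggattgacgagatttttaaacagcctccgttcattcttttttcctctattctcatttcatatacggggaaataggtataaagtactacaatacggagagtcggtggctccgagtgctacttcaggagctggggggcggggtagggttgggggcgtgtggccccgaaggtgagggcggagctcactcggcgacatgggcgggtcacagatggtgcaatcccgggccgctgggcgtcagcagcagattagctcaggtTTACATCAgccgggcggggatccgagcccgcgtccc
Nupr1, chr7:126625421-126625720, minus strand: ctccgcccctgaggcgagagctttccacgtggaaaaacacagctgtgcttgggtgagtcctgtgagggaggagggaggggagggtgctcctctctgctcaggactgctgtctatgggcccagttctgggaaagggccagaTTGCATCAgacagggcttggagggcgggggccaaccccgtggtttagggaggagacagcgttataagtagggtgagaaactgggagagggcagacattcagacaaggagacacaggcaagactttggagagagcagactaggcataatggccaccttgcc
Herpud1, chr8:94386179-94386478, plus strand: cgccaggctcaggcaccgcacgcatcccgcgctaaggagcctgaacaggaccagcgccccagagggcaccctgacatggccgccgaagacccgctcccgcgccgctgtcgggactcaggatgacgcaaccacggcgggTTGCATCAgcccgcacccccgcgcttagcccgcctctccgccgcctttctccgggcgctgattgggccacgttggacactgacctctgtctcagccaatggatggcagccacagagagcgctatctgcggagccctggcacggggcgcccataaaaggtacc
Each of these 4 promoters held 1 match, on the strand opposite to the gene, starting 193 bases before the start in Chac1, 110 in Nupr1 and 112 in Herpud1, and 14 bases after it in Trib3. In the promoters of Atf4, Ddit3, Ddit4 and Slc6a9 the letters did not occur in this window. Of all 32851 promoters, 3.97% held a match, and of the 43 promoters of the list in the table, which belong to 37 genes, 10 (23.3%) did, each of a different gene. The other 6 were Asns, Atf3, Fgf21, Pck2, Slc7a11 and Vldlr, and of these the differences of Asns, Atf3, Pck2 and Vldlr were -0.10, 0.33, 0.07 and 0.53. The match was therefore found in genes on both sides of 1.5-fold. It is a description of the sequence and not a site shown to be bound.

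**Figure D3:**
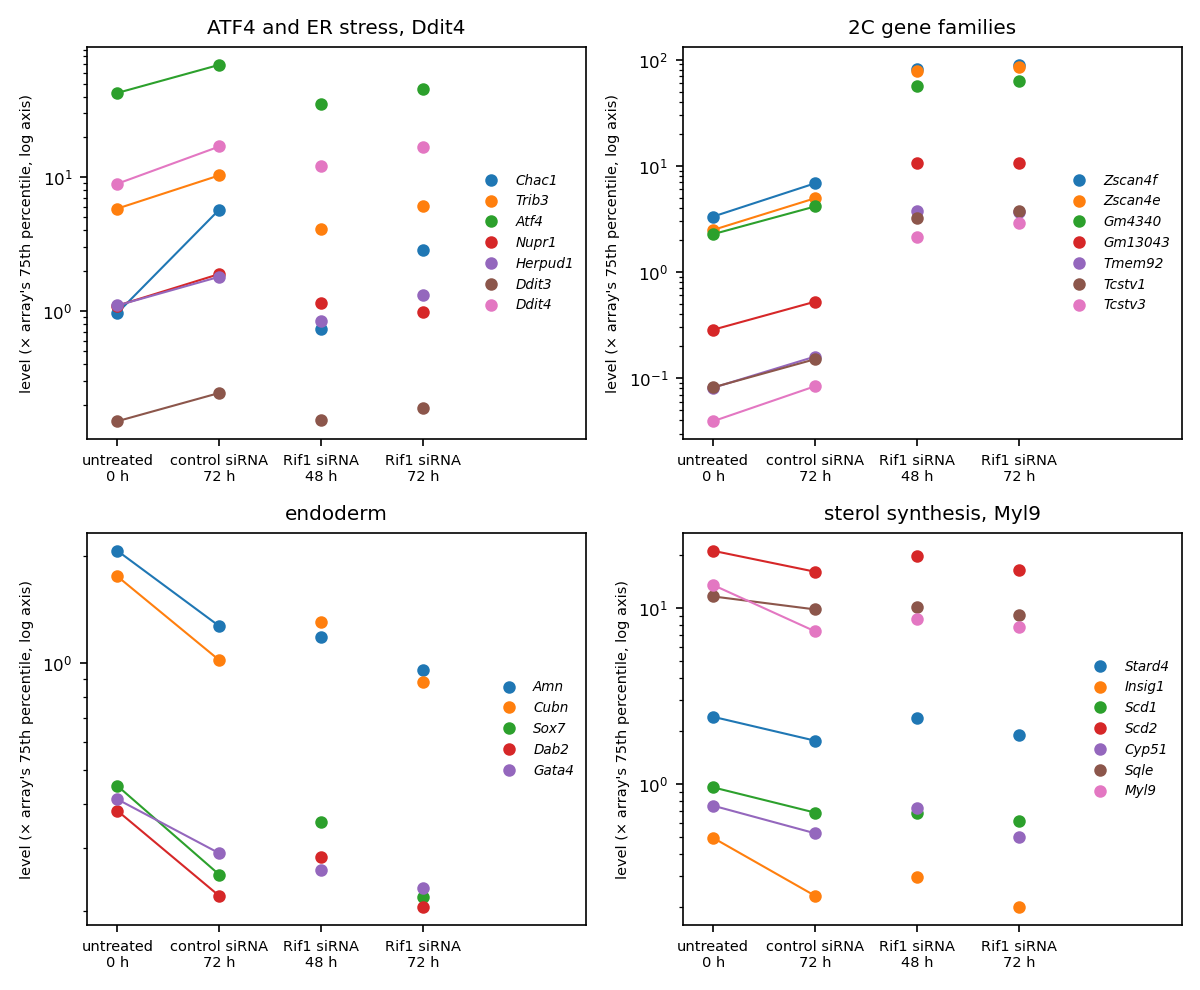
Levels of named genes (vertical, log axis, in multiples of the array's 75th percentile) on the 4 arrays, 1 point for each probe and array. Lines join the compared pair, untreated and control siRNA at 72 h. Stress genes stood higher and endoderm, sterol and Myl9 probes lower with control siRNA, and the 2C genes stood far higher on the Rif1 siRNA arrays.

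A few genes that respond to low oxygen were also higher. Ddit4 (Redd1), an inhibitor of the growth kinase mTORC1 that both HIF and ATF4 can induce, stood at 8.94 untreated, 17.0 with control siRNA, and 12.1 and 16.8 at 48 h and 72 h of Rif1 siRNA, a difference of 0.92. Adm, the vasodilator adrenomedullin, stood at 0.0590, 0.111, 0.0530 and 0.0827 (0.92). Eno2, an enolase, stood at 0.102, 0.159, 0.0787 and 0.117 (0.65). The mitophagy receptor Bnip3 had differences of 0.42, 0.41 and 0.62 on its 3 probes, the last with its spot in rows 181 to 420, and Vegfa, which drives vessel growth, 0.50 and 0.30. Of 68 measured probes for glycolysis and hypoxia response, 48 were above 0 and the median was 0.12. Only 4 lay over 1.5-fold up and 0 over 1.5-fold down, against 1.34% and 1.92% of all measured probes. Apart from Eno2, the glycolytic enzymes lay within 1.5-fold, with 0.07 to 0.37 for Ldha, 0.24 and 0.29 for Tpi1, 0.20 for Pkm, 0.12 and 0.17 for Pgk1, and -0.05 to 0.17 over the probes of Gapdh. Hk1 had -0.15 to -0.02, Hk2 -0.06, Gpi1 -0.04 to -0.02, Pfkp -0.14 and -0.19, and Aldoc -0.02. Also below 0 were the HIF targets Car9, with -0.28, P4ha2, with -0.24, Igfbp3, with -0.20, Ndrg1, with -0.11, and Pdk1, with -0.07.

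The 2C gene families stood higher as a group. These are multicopy genes such as Zscan4, which takes part in telomere upkeep, the Tcstv genes and the Usp17l deubiquitinases. The study chose these families on arrays of this series for their response to Rif1 siRNA, so the list is not independent of these data. Of 23 measured probes, 22 were above 0, 18 were over 1.5-fold higher, 9 over 2-fold higher and 0 over 1.5-fold lower, against 1.34%, 0.377% and 1.92% of all measured probes. The median difference was 0.94, or 1.92-fold. The 11 probes inside rows 181 to 420 had a median of 0.88 and the 12 outside 0.98.

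The 7 probes of Zscan4 genes, on mm9 chromosome 7, lay between 0.99 and 1.21, at 1.99-fold to 2.32-fold. The brightest, for Zscan4f, stood at 3.33 untreated, 6.84 with control siRNA, and 81.4 and 89.3 at 48 h and 72 h of Rif1 siRNA. The difference of the compared pair was therefore small beside the levels with Rif1 siRNA. Gm4340 on chromosome 10 stood at 2.27 and 4.14 in the compared pair (0.87), and Gm2022 on chromosome 12 at 1.25 and 2.24 on its brighter probe (0.84). Tcstv1 stood at 0.0818 and 0.151 (0.88), Tcstv3 at 0.0393 and 0.0838 (1.09), Tmem92 at 0.0811 and 0.160 (0.98) and Gm13043 at 0.286 and 0.525 (0.88). All of these stood higher still on both Rif1 siRNA arrays. Probes of these families can read near-identical copies, so a value belongs to a family rather than to 1 gene.

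Some probes of the families did not share this difference. AA684185 had 0.94 on 1 probe and 0.08 and 0.10 on 2 others, and Usp17la had 1.16 on 1 probe and -0.34 on another that stood at 0.0426 and 0.0336. Of 16 measured probes for other 2C genes outside these families, 0 lay past 1.5-fold, which is near the background of all measured probes. Their median was 0.08, with 0.53 for Obox6, 0.29 and 0.27 for Calcoco2, 0.55 and 0.30 for the dimmer probes of Sp110, -0.08 for its brightest, 0.08 for Zfp352 and 0.15 for Gm5039. Of all 85 probes over 2-fold higher, 14 were highest at 48 h and 17 at 72 h of Rif1 siRNA, probes of the families among them. Further ones were on neither list and stood far higher still with Rif1 siRNA, so the rise was not confined to the listed families. Examples, chosen after their values were seen, were Gm7963 (1.23), Gm11758 (1.17) and Lgals6 (1.10). The 48 measured probes of chromatin regulators that are known to repress 2C genes lay between -0.17 and 0.21.

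Markers of primitive and definitive endoderm were lower with control siRNA. Amn and Cubn, the membrane anchor and the ligand-binding part of the receptor cubam of visceral endoderm, stood at 2.07 and 1.27 (-0.71) and at 1.75 and 1.02 (-0.78). The transcription factor Sox7 stood at 0.450 untreated, 0.253 with control siRNA, 0.357 at 48 h and 0.218 at 72 h of Rif1 siRNA (-0.83). The endocytic adaptor Dab2 stood at 0.383, 0.220, 0.285 and 0.205 (-0.80). For Amn, Cubn, Sox7 and Dab2 the untreated array was the highest of the 4 and Rif1 siRNA at 72 h the lowest. Foxa2 was over 1.5-fold lower on both of its probes (-0.63, and -1.03 with its spot in rows 181 to 420). Sox17 had -0.72 and -0.28, both with spots in those rows. Gata4 had -0.51, Gata6 -0.18, Hnf4a -0.27 and Pdgfra -0.36. The basement membrane genes Col4a1, Col4a2 and Lama1 had -0.41, -0.42 and -0.35.

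Of the 20 measured endoderm probes, 19 were below 0, 8 were over 1.5-fold lower, 1 over 2-fold lower and 0 over 1.5-fold higher, against 1.92%, 0.616% and 1.34% of all measured probes, and the median was -0.42. Over the 10 of these probes outside rows 181 to 420 the median was -0.39. Apoe was the exception, at 21.9 and 22.9 (0.06). In a bulk culture, fewer endoderm-like cells and less RNA in each of them cannot be told apart. The 7 defining markers of primitive endoderm were all well above background, and their summed level was 3.09 untreated, 2.15 with control siRNA, and 2.56 and 1.84 with Rif1 siRNA.

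Other lineages had fewer probes past 1.5-fold. Of 19 measured probes for mesoderm and primitive streak, 3 were over 1.5-fold lower and 1 higher, against 1.92% and 1.34% of all measured probes. The median was -0.19, or -0.37 over the probes outside rows 181 to 420. It was -0.09 among the brighter probes, those above the median level of all measured probes, which in this list read only Bmp4, Kdr and Nodal. Evx1, a homeobox gene of the posterior streak, stood at 0.155, 0.0353, 0.185 and 0.0589 on the 4 arrays (-2.14, 1 probe outside rows 181 to 420). The VEGF receptor gene Kdr had -0.76 on 1 of 2 probes, Eomes -0.84 on 1 of 2, and Fgf8 1.26 on 1 of 2, the last 2 in rows 181 to 420. Neural, trophoblast and fibroblast lists had medians of -0.07, 0.00 and -0.03. Past 1.5-fold were 1 neural probe, lower (Neurod1, -0.77), 0 trophoblast probes and 1 fibroblast probe, higher (Fbn1, 0.62). Over all measured probes 1.92% were lower and 1.34% higher. The other probe of Neurod1 had 0.36, and both spots of this gene lay in rows 181 to 420. Among the brighter probes, few in either list, the fibroblast median was -0.16, and the neural median was also further below 0. The brighter fibroblast probes read Acta2, Fn1, Tagln, Thy1 and Vim. The defining fibroblast genes Col3a1, Lum and Postn were not among the measured genes. The summed fibroblast level was 4.26 untreated and 3.84 with control siRNA. Most of it came from Thy1, at 3.505 and 3.107, while Col1a1 and Col1a2 had differences of 0.01 and -0.03.

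Most probes for sterol synthesis stood below 0, and few were past 1.5-fold. Insig1, which keeps the transcription factor SREBP in the endoplasmic reticulum and is itself an SREBP target, stood at 0.492 untreated, 0.231 with control siRNA, 0.296 at 48 h and 0.199 at 72 h of Rif1 siRNA (-1.09, 1 spot in rows 181 to 420). The untreated array was the highest of the 4 and Rif1 siRNA at 72 h the lowest. Hsd17b7, of cholesterol synthesis, had -0.65, -0.49 and -0.05 on its 3 probes. Cyp51 had -0.52, the desaturases Scd1 and Scd2 -0.48 and -0.40, the sterol carrier Stard4 -0.45 and -0.20, Sqle -0.24 and Hmgcs1 -0.20.

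Of 55 measured probes for 39 sterol and fatty acid genes, 45 were below 0, 3 were over 1.5-fold lower and 0 over 1.5-fold higher, against 1.92% and 1.34% of all measured probes, and the median was -0.15. The median over the 24 probes at or above the 75th percentile on both arrays was -0.19. Fatty acid synthesis proper stood near 0, with 0.05 for Fasn, -0.04 and 0.02 for Acly and -0.18 to 0.08 for Acaca. Abca1 and Mylip, which are induced when sterols are abundant, had 0.33 and 0.44. The element CACCCCAC, 1 form of the site bound by SREBP, occurred on either strand in 2.87% of all promoters and in 1 (3.03%) of the 33 promoters of the list in the table, that of Hmgcs1, and not in the windows of Insig1 and Hsd17b7.

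In the list of actin, adhesion and YAP targets 1 probe lay past 1.5-fold. It read Myl9, the regulatory light chain of smooth muscle myosin, and was the lowest of the bright probes. Myl9 stood at 13.4 untreated, 7.34 with control siRNA, 8.63 at 48 h and 7.74 at 72 h of Rif1 siRNA (-0.87), so the untreated array stood apart from the other 3. Acta2 had -0.55, Thbs1 -0.43, the calponin Cnn1 -0.33, its relative Cnn2 -0.37 and -0.31, and vinculin (Vcl) -0.40 and -0.35. Of the 54 probes of the list, 41 were below 0 and the median was -0.10. The 1 probe over 1.5-fold lower, that of Myl9, is a share like the 1.92% of all measured probes. Srf, the factor that drives such genes, had -0.38 and -0.32. Among immediate early and serum response genes, Fosl2 was over 1.5-fold lower on both probes (-0.92, with its spot in rows 181 to 420, and -0.63) and Dusp5 had -0.59, while Egr1 had -0.03 and Jun 0.06. This list had 28 of 36 probes below 0, 3 over 1.5-fold lower, against 1.92% of all measured probes, and a median of -0.13.

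Of the targets of Wnt, BMP and TGF-beta signals, Sp5 and Dkk1 were over 1.5-fold lower. Both are induced by Wnt and stood at 0.541 and 0.316 (-0.77) and at 0.324 and 0.211 (-0.62), whereas Axin2 had -0.18. The BMP targets Id1 and Id3 had -0.36 and -0.37 and Id2 -0.16. Bmp4 had -0.41, Lefty2 -0.31 and Smad7 -0.13, while Lefty1 had 0.34, Skil 0.14 and 0.10, and Nodal 0.07. Of the 26 probes, 19 were below 0, 2 were over 1.5-fold lower and 0 over 1.5-fold higher, against 1.92% and 1.34% of all measured probes, and the median was -0.14.

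Few probes in the list of interferon-stimulated genes lay past 1.5-fold at 72 h. Of 43 measured probes for interferon-stimulated genes and nucleic acid sensors, 0 were over 1.5-fold higher and 2 were over 1.5-fold lower, near the 1.34% and 1.92% of all measured probes, and the median was -0.08. Isg15 had -0.24, Ifit2 -0.44, Oas1a -0.23 and -0.22, Irf1 -0.20 and PKR (Eif2ak2) -0.08, and the highest value was 0.40 for Stat2. Ddx58, which encodes RIG-I, stood at 3.50, 2.20, 2.90 and 1.84 on its brighter probe (-0.67), and its dimmer probe had -0.33. Xaf1 had -0.67 and -0.32. Zbp1, a sensor of Z-form nucleic acids, had -0.57. Of the 15 measured probes for NF-kB and inflammation, 0 lay past 1.5-fold, which is near the background. Outside the list, the interferon-inducible GTPase genes Gbp1 and Gbp11 had -2.08 and -1.29 on 1 probe each, both with spots in rows 181 to 420. The other measured probe of Gbp1 was not over 1.5-fold lower, whereas Irgm1 was over 1.5-fold lower on both probes. An earlier and passing response would not be seen at a single late time.

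**Figure D4:**
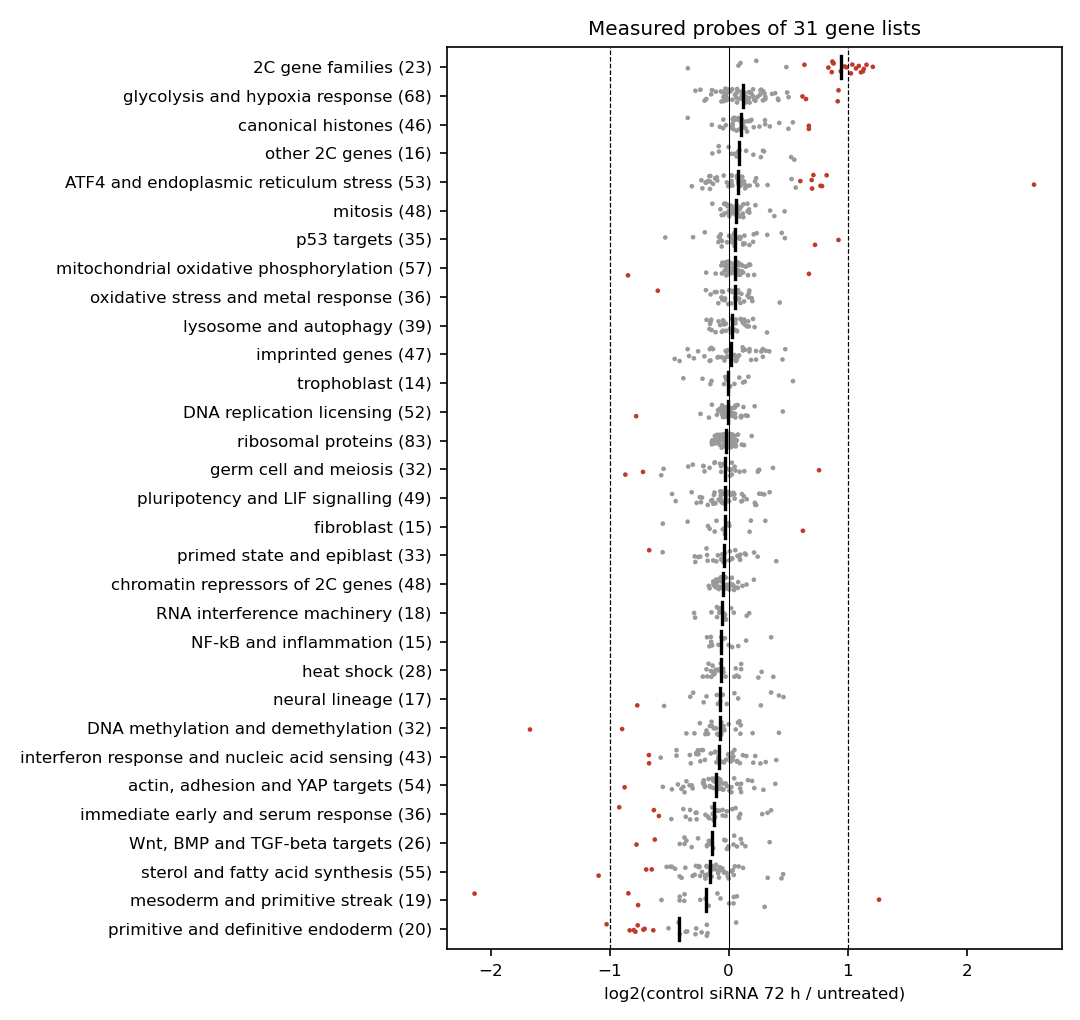
Log2 differences between control siRNA at 72 h and untreated cells (horizontal) for the measured probes of 31 gene lists, with the number of probes in parentheses and the median as a black bar. Red points lie past 1.5-fold and dashed lines mark 2-fold. The 2C gene families lie to the right, endoderm to the left, and most other medians lie within 0.2 of 0.

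Of 18 probes for the machinery that siRNAs use, 0 lay past 1.5-fold, which is near the background since 96.7% of all measured probes lay within it. The 3 probes of Eif2c2, which encodes Argonaute 2, had -0.03 to -0.10, Dicer1 -0.04, Drosha -0.14 and -0.10, and the helicase gene Mov10 -0.28. Heat shock genes (28 probes, median -0.06) and genes of lysosomes and autophagy (39 probes, median 0.03) also had 0 probes past 1.5-fold, again near the background. Among genes of oxidative and metal stress, the zinc exporter Slc30a1 stood at 1.52, 1.01, 1.42 and 1.08 (-0.60), while the metallothioneins Mt1 and Mt2 had -0.19 and -0.12 on their brightest probes and Hmox1 -0.15 and -0.09. Of 35 probes for p53 targets 2 were over 1.5-fold higher, Ddit4 and the stress cytokine gene Gdf15 (0.395 and 0.653, a difference of 0.73, 1 spot in rows 181 to 420), against 1.34% of all measured probes. Both are also induced by ATF4. Cdkn1a (p21) had 0.09 on its brighter probe, Mdm2 0.05 and Bax 0.05.

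Pluripotency genes stayed within 1.5-fold. Of 49 measured probes for pluripotency and LIF signaling, 0 lay past it, near the background of all measured probes, and the median was -0.03. Pou5f1 (Oct4) stood at 10.7 untreated and 11.5 with control siRNA (0.11), Sox2 at 5.71 on both, Zfp42 at 37.6 and 38.4 (0.03), and Nanog at 40.3 and 43.4 on its brighter probe (0.11). Klf4 had 0.26, Esrrb -0.02, Utf1 -0.06, Fgf4 0.05, Tbx3 -0.07, Nr0b1 -0.18 and Dppa3 -0.27, and the 3 probes of Tdgf1 had 0.22 to 0.30. The lowest values belonged to both probes of Nr5a2, a nuclear receptor, with -0.48 and -0.45. LIF signaling showed 0.11 for Socs3 and -0.11 for the brighter probe of Stat3. Among primed-state genes, only Foxd3 lay past 1.5-fold, at 1.62 and 1.02 (-0.67). Over all measured probes, 1.92% were over 1.5-fold lower and 1.34% higher. Stra8, a retinoic acid target needed for meiosis, stood at 3.46, 5.86, 7.67 and 8.45 on the 4 arrays (0.76), lowest in untreated cells. The germ cell and meiosis list did not share this rise. Its 32 measured probes had a median of -0.03, with 1 over 1.5-fold higher (Stra8) and 2 over 1.5-fold lower. The lower probes were dim and read Tdrd5 (-0.87) and Hormad1 (-0.72). Other probes of these genes lay within 1.5-fold, at -0.16 and -0.21 for Tdrd5 and -0.34 for Hormad1.

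Genes of growth and division lay within 1.5-fold but for a few dim probes. The median was -0.02 over 83 probes of ribosomal proteins, between -0.14 and 0.19, and 0.00 over 52 probes for DNA replication licensing, of which only 1 probe of Cdc7 (-0.78, the dimmer of its pair) lay past 1.5-fold, near the background of 1.92% lower and 1.34% higher. Mitosis genes had a median of 0.06, with 37 of 48 probes above 0, and canonical histones 0.11, with 40 of 46 above 0. The histone probes over 1.5-fold higher, Hist1h4h and Hist2h3c2, were dim and lay in rows 181 to 420, and as 2 of 46 probes stand against 1.34% of all measured probes. Oxidative phosphorylation (57 probes) had a median of 0.05, with Cox6a2 at -0.85 and Ndufa4l2 at 0.67, both in those rows, and imprinted genes (47 probes) 0.02. Of 32 probes for DNA methylation and demethylation, 1 of 3 for Tdg had -0.90 and 1 of 3 for Apobec3 had -1.67, both with spots in rows 181 to 420. Over all measured probes 1.92% were over 1.5-fold lower. The other 2 probes of Tdg, both brighter, had -0.04 and 0.08, and the other 2 probes of Apobec3 had -0.09 and -0.17.

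The largest differences by size belonged to dim probes. The highest was Gm3716, at 0.0311 untreated, 0.193 with control siRNA, and 0.0500 and 0.0242 with Rif1 siRNA (2.63). Behind Chac1 followed Defa-rs4 (2.14), Dtx3l (2.09), Nkx6-1 (2.00), Sfta2 (1.94), Pde6g (1.92), Matn3 (1.86), Gabarap (1.83), Bcl11a (1.77) and Nab2 (1.73), all with spots in rows 181 to 420. Among probes with a gene symbol, the lowest were Olfr129, at 0.182, 0.0180, 0.0132 and 0.00976 (-3.34), 2600006K01Rik (-3.32), Sla2 (-2.96), Rem1 (-2.87), Rhox3f (-2.84), Fmn1 (-2.80), Krtap5-5 (-2.73), Entpd3 (-2.66) and Mapk4 (-2.63), all in the same rows. Some probes without a gene symbol lay between these. The 20 largest falls by gene all lay there, with untreated levels of 0.0942 to 0.302. In such a fall the untreated array was usually the odd one of the 4, as for Sla2 with 0.181 against 0.0233, 0.0149 and 0.0132.

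Other probes of the same genes rarely shared a 2-fold difference. Of 67 named genes with a probe over 2-fold higher, 27 had another measured probe, and in 20 of these no other probe was past 1.5-fold in the same direction. Of 109 genes with a probe over 2-fold lower, 32 had another measured probe, and in 30 no other probe was past 1.5-fold. Dtx3l, Gabarap and Nab2, for example, had large values on 1 probe only.

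Genes whose probes all gave the same answer were fewer. Of 4050 named genes with at least 2 measured probes, 13 (0.321%) were over 1.5-fold higher on every probe and 6 (0.148%) over 1.5-fold lower on every probe. The higher genes were Atf4, Bhmt, a methyltransferase of methionine metabolism, Tmprss12, a serine protease, and 10 genes of the 2C type that stood higher still with Rif1 siRNA, namely Zscan4a, Zscan4c, Gm2022, Gm4312, Gm8300, Gm13119, A430089I19Rik, AF067061, BB287469 and LOC100502924. LOC100502924 stood at 0.425, 1.01, 24.9 and 25.3 on the 4 arrays on its brighter probe (1.25). Bhmt stood at 0.0546, 0.126, 0.185 and 0.123 on the higher of its probes (1.21), lowest in untreated cells.

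The 6 lower genes were Foxa2, Fosl2, Skor1, a transcriptional corepressor, Irgm1, an interferon-inducible GTPase, Ulbp1, a ligand of the natural killer cell receptor NKG2D, and Zbtb4, a zinc finger protein that binds methylated DNA. Skor1 had the brightest probes of them. They stood at 0.892, 0.451, 0.464 and 0.392 (-0.98) and at 0.669, 0.338, 0.317 and 0.294 (-0.98), so the untreated array stood apart from the other 3 on both. Irgm1 stood at 0.286, 0.160, 0.248 and 0.190 on its brighter probe (-0.84) and had -0.60 on the dimmer, whose spot lay in rows 181 to 420. Zbtb4 had -1.003 and -1.024, and both of its spots lay in rows 181 to 420.

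Some probes were well above background on 1 array of the pair, where the fold is a bound against the lowest signal above background. Of 1976 such probes on the control siRNA array, 147 were at least 2-fold higher, and of 394 on the untreated array, 296 were at least 2-fold lower with control siRNA. Of these, 142 of the 147 and 284 of the 296 had spots in rows 181 to 420. The largest bounds were at least 10.4-fold higher for 4930443G03Rik, 9.66-fold for Slc38a9, 8.92-fold for Ccdc30, 7.32-fold for Ecm1 and 6.93-fold for Olfr630. In the other direction they were at least 11.2-fold for Aar2, 11.1-fold for Usp27x, 10.6-fold for Spata9, 10.3-fold for Dcx and 10.2-fold for Gm7480. All 10 spots lay in those rows, and each stood apart on a single array of the 4.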

How the data were processed

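Each condition was read as total RNA, Cy3-labeled, on 1 Agilent array of the one-color kind, and all arrays shared 1 slide. Per the labels, the authors extracted the scans with Feature Extraction 11.5.1.1, and the deposited values are spot intensities (processed signal) after background subtraction and detrending, with flags and mm9 positions. The authors also deposited a table of the same values as a ratio to each array's 75th percentile, used here only as an alternative.

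Processed signals were divided by the 75th percentile of the 43020 non-control spots of their array and taken as log2 values. On the compared pair, 152 and 142 outlier spots were dropped and 0 were saturated. Probes spotted 10 times (399 probes) entered as the mean of their spots. A probe was measured where at least 50% of its spots were well above background on both arrays. The median SD between repeated spots of a probe was 0.09 and 0.08 (log2), and over 254 repeated probes measured on both arrays the SD of the difference was 0.19, against 0.12 from the spread of spots alone. The number of arrays limits the precision, and no count depth exists.

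With 1 array per condition no test was run. The main threshold was 2-fold and the second 1.5-fold. Named by rule were the 20 largest rises and 20 largest falls by gene, of which the text gives the leading ones, the 10 largest of each among probes at or above the 75th percentile, members of the 31 gene lists past 2-fold, the 5 largest bounds in each direction, Rif1 and 12 pluripotency genes. Other genes were named after their values were seen. The members and lists were chosen with earlier results of these data known. Gene names are those of the array files, and 17731 of the measured probes matched a RefSeq accession. Promoter sequences are from RefSeq (GRCm38.p6) and were matched by symbol. Alternatives were normexp with an offset of 50, quantile normalization, median scaling, removal of the signal trend, the deposited ratios, other spot and probe summaries, other thresholds and filters and, added after the data were seen, leaving out rows 181 to 420, the run of rows with most calls. Some genes are not reported here. Python 3.11.15, pandas 2.3.3, numpy 2.4.6, statsmodels 0.14.6, matplotlib 3.10.9, R 4.3.3 and limma 3.58.1 were used.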

Additional observations from a re-analysis of the deposited data

How the results depend on the processing

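No paired analysis was possible because a group holds a single array. A list median or single value counted as moved when it changed by over 0.125 (log2), the spread of repeated spots in a difference, and a count when it changed by over 1.5 times. None of the 31 list medians or 88 named probes changed sign beyond this limit under the alternatives run. The counts over 2-fold, 85 higher and 139 lower, depended on dim probes. They were 302 and 433 at a 1.5-fold threshold, 4 and 37 at 4-fold, 7 and 1 in the brighter part of the measured probes (above their median level), 24 and 53 with normexp background correction, 831 and 1400 with no filter on background, and 232 and 435 with bounds counted too. Outside rows 181 to 420, chosen after seeing the data, 22 were higher and 5 lower. Scaling, trend removal, the deposited ratios and the treatment of repeated or outlier spots left them within 84 to 92 and 118 to 141. Of the list medians, that of the 2C gene families was 0.78 with normexp and that of mesoderm was -0.37 outside rows 181 to 420. Those of fibroblast and neural genes were -0.16 and -0.20 among the brighter probes, which are few in these lists. With normexp 48 of the 88 named probes moved, and with the other settings run for them 0 did. The cause of these shifts was not tested. Dim probes and the single array of each condition set the limits of these data.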

Other observations

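Between the dim and the bright probes lay further genes that no list held, chosen here after their values were seen. Among 4707 measured probes whose lower level was between 0.25 and 1, 43 lay over 1.5-fold above and 21 over 1.5-fold below their untreated level. The lowest was Aqp8, an aquaporin, at 1.40 untreated, 0.442 with control siRNA, and 0.599 and 0.360 at 48 h and 72 h of Rif1 siRNA (-1.67, 1 probe in rows 181 to 420). The transcription factor genes Pou4f2 and Foxq1 stood at 0.858 and 0.494 (-0.80) and at 0.545 and 0.333 (-0.71), Egr4 at 0.471 and 0.293 (-0.68), and cardiac actin, Actc1, at 0.622 and 0.381 (-0.71). Among the higher probes, Insm1, a zinc finger gene of neuroendocrine cells, stood at 0.397 and 0.664 (0.74), and Vps37d, a subunit of the endosomal sorting complex ESCRT-I, at 0.432 and 0.721 (0.74).

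No chromosome stood apart as a whole. The median difference over the measured probes with an mm9 position lay between -0.02 on chromosome 14 and 0.01 on chromosome 16, over 20 chromosomes and 22272 probes. In 40 blocks of the array the medians lay between -0.05 and 0.02. Both ranges are small beside the SD of 0.26 over probes.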
